A study of Homo sapiens with 4 samples.

Results

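The KLF transcription factor genes described here were KLF2, KLF3, KLF4, KLF5, KLF6, KLF7, KLF9, KLF10, KLF11 and KLF13, taken with every probe that the array annotation gives to them. Of these 10 genes, 9 had a probe, among 20046 genes with a probe on the array, and together they had 13 probes. No probe was listed for KLF11, which was therefore not measured here. RNA came from HuES6, an established human embryonic stem cell (hESC) line, replated on Matrigel in medium conditioned by mouse embryonic fibroblasts and then switched to hESC medium with FGF2 (20 ng/ml) plus Activin A (5 ng/ml). All 4 groups shared these factors: an untreated control, cells given BMP4 at 20 ng/ml, which activates BMP receptors, cells given 5 µM CHIR99021, a GSK3 inhibitor that switches on canonical WNT signaling, and cells given both, each for 4 h. Every group was 1 Illumina HT-12 V4 bead array of bulk RNA from 1 cell line, so that no difference below has a replicate error or a p-value, and in bulk RNA fewer cells of a type and less RNA per cell cannot be told apart.

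KLF proteins bind GC-rich and CACCC-type DNA through zinc fingers at their carboxy terminus and differ in the cofactors they recruit through the rest of the protein. KLF2, KLF4 and KLF5 are known from mouse embryonic stem cells as activators that help to keep the naive pluripotent state, and KLF4 is also one of the reprogramming factors. KLF6 is an early-response gene of injury and stress, and KLF10 was first described as a gene induced early by TGF-beta. KLF3 recruits the corepressor CtBP, while KLF9, KLF10, KLF11 and KLF13 recruit SIN3A.

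Levels are given as background-corrected, quantile-normalized log2 intensities. They are compared between arrays for a given probe, not between genes. A probe was detected on an array if its detection p against negative control probes was below 0.01, and a gene was called higher or lower between a pair of arrays if it was detected on at least 1 of them and differed by at least 1 on the log2 scale, a 2-fold difference. Of the 9 KLF genes with a probe, 7 were detected on at least 1 array and 4 on all of them (KLF2, KLF6, KLF10 and KLF13). On the untreated array 7 were detected, 4 under BMP4, 5 under CHIR99021 and 5 under both. In the same order 35.4%, 35.0%, 33.8% and 34.6% of all probes were detected. The KLF counts depend on the limit, as KLF4 had a detection p of 0.0026 untreated and 0.0143 under CHIR99021. KLF5 and KLF7 were detected on none. Across the whole array, 15980 to 16762 probes were detected per sample, the 4 arrays correlated with r from 0.984 to 0.990 over 18916 probes, and all 9 measured hESC markers of a list of 10 were detected on every array. No array stood apart.

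**Figure D1:**
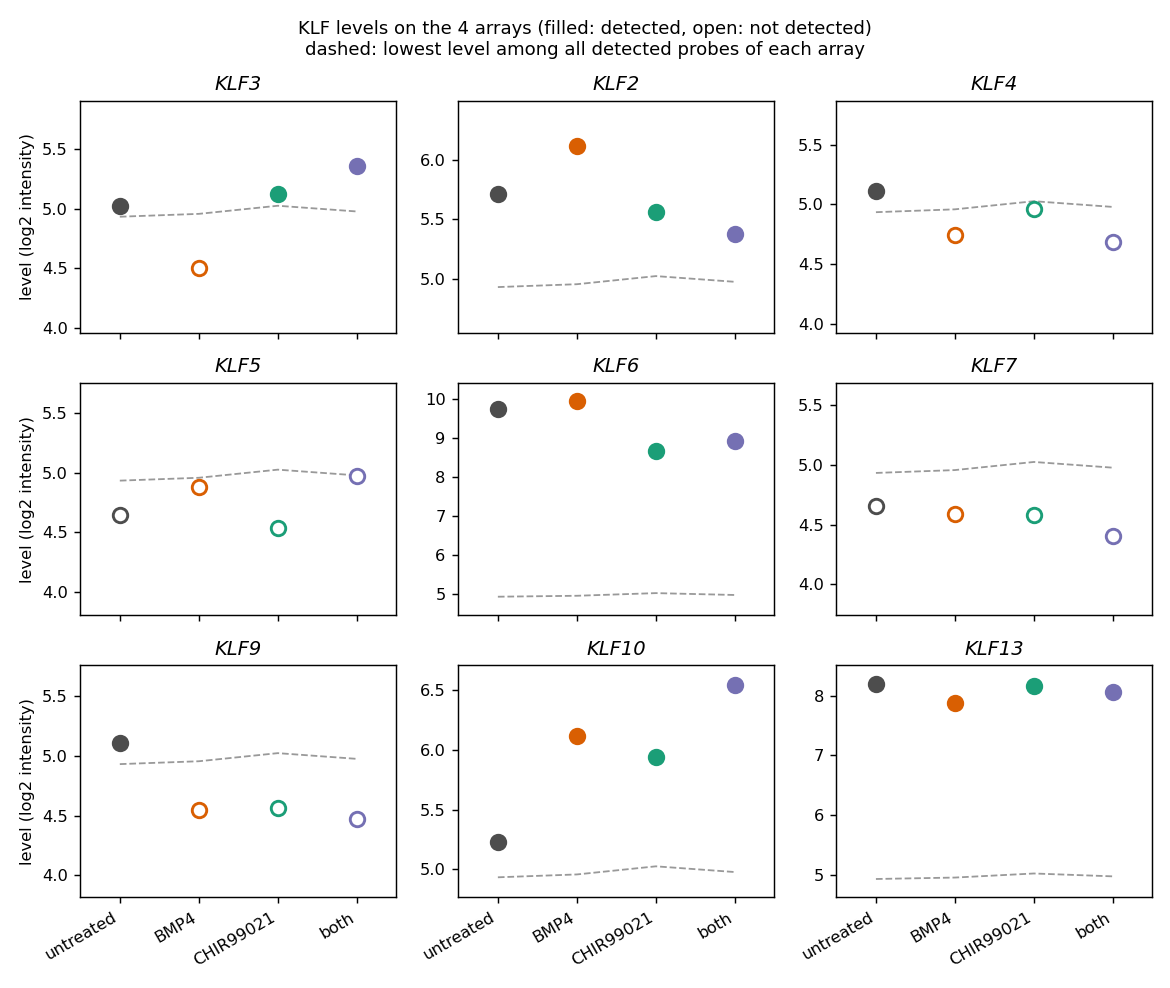
Level of each KLF gene (log2 intensity, y axis, scale set per gene) on the 4 arrays (x axis), filled where the probe was detected and open where it was not, with the lowest level among all detected probes of each array as a dashed line. KLF6, KLF13, KLF10 and KLF2 lay above the line on all 4 arrays, KLF5 and KLF7 were not detected on any, and KLF4 and KLF9 were detected on the untreated array only.

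KLF6 was lower on both arrays with CHIR99021 than on both arrays without it. The difference was about 2-fold where arrays differed by CHIR99021 only, and 1.74-fold for both treatments against untreated. The single KLF6 probe measured 9.73 on the untreated array, 9.93 under BMP4, 8.65 under CHIR99021 and 8.93 under both treatments. Levels with and without CHIR99021 did not overlap, while those with and without BMP4 did. How many genes split this way was not counted, and among so few arrays such an order alone carries little weight. Against untreated cells, KLF6 was 2.10-fold lower under CHIR99021 (-1.07 on the log2 scale), which made it 1 lower gene of 7 measured KLF genes in a comparison where 0.586% of 10747 detected genes were lower and 0.335% higher by the same rule. Only 43 genes, KLF6 included, lay at least as far down. When CHIR99021 was added to BMP4, a comparison that shares no array with the first, KLF6 was 2.00-fold lower (-1.0), the only lower call among 5 measured KLF genes, beside 0.466% of 10732 genes lower and 0.345% higher. It was the last of the 50 genes inside the rule there, so this call lay at its edge. A drop past the rule in both of these comparisons was found in 17 of 10197 genes, or 0.167%.

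The KLF6 difference was also visible before any normalization. Raw intensities were 945 (untreated), 986 (BMP4), 497 (CHIR99021) and 528 (both), against array medians of 88.7 to 93.6, so that raw intensity was 1.90-fold lower under CHIR99021 and 1.87-fold lower when it was added to BMP4. BMP4 came with small KLF6 differences, at 0.20 against untreated and 0.28 when added to CHIR99021. Under both treatments together KLF6 was at -0.80, or 1.74-fold lower than untreated and short of the size rule. The departure from additivity, which is the log2 level under both minus that under each treatment plus that of untreated cells, was 0.07. Among the 2285 detected genes with a mean level of 9 or more, the central 95% of CHIR99021 differences ran from -0.66 to 0.51. Without background correction KLF6 was at -0.93 and -0.89 in the 2 CHIR99021 comparisons, outside the rule in both with the direction kept.

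KLF6 lies on chromosome 10 (3775996 to 3785209, GRCh38.p14, minus strand). The 250 bases before its RefSeq start are shown because KLF6 was the KLF gene lowered with CHIR99021, next to those of KLF13, detected on all 4 arrays with no call, and of KLF2 and KLF4, which are linked to pluripotency. Capitals mark the motifs searched on both strands that were found: CTTTGA, the core letters of TCF/LEF sites, and CACCC, the KLF-type box. GGAATG (TEAD), GGCGCC (SMAD, GC-rich), TGACGTCA (CRE) and the CArG box of SRF had no match in these 4 windows.
KLF6, chr10:3785210-3785459, minus strand: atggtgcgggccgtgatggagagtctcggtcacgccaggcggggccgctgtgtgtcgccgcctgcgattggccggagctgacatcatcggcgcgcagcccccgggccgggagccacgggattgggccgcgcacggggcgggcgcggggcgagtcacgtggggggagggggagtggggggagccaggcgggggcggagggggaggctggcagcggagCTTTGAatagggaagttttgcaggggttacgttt
KLF13, chr15:31326585-31326834, plus strand: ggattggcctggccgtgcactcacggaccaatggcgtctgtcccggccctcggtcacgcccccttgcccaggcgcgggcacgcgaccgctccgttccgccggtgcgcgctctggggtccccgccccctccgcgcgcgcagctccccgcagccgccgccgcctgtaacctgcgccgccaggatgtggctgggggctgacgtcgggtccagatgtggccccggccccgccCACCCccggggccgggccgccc
KLF2, chr19:16324576-16324825, plus strand: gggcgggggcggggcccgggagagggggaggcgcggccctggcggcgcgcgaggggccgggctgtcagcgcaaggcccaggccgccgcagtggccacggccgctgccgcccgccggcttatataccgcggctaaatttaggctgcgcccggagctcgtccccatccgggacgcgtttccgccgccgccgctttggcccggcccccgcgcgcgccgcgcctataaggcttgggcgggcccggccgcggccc
KLF4, chr9:107489770-107490019, minus strand: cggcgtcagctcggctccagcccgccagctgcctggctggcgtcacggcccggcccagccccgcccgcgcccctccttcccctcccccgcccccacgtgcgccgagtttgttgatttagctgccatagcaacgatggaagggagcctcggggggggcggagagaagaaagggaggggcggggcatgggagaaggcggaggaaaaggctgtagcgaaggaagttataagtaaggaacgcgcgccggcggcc
The KLF6 window held 1 CTTTGA, from 34 to 29 bases before the start, and was 72.4% G or C. CTTTGA was present in 11.2% of 35116 such windows over all RefSeq genes in the table and in 3 of the 13 windows of 8 KLF genes, the others belonging to KLF7, which was not detected. The KLF13 window, 78.8% G or C, held 1 CACCC, a motif found in 54.7% of all windows and in 6 of the 13. The KLF2 window was 80% and the KLF4 window 69.2% G or C, and neither held any of the motifs. These matches are descriptions of letters in the window.

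KLF10, which recruits SIN3A and is the other gene linked to stress, behaved differently from KLF6. Its detected probe measured 5.23 (untreated), 6.11 (BMP4), 5.95 (CHIR99021) and 6.54 (both), so that each treated array was above the untreated one and the combined array was highest. KLF10 was 1.85-fold higher under BMP4 (0.89), 1.65-fold higher under CHIR99021 (0.72) and 2.49-fold higher under both (1.32). Only the combined treatment passed the size rule, as the only higher call among 7 measured KLF genes, beside 0.628% of 10825 genes higher and 0.656% lower. In that comparison 39 genes, KLF10 included, lay at least as far up, and 37 of 10864 did so under BMP4. No KLF gene was called under BMP4 alone, where 0.203% of genes were higher and 0.092% lower. The further step from a single treatment to both was 0.60 when BMP4 was added to CHIR99021, where again no KLF gene was called (0.331% of genes higher and 0.0851% lower), and 0.43 when CHIR99021 was added to BMP4. The departure of KLF10 from additivity was -0.29.

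The KLF10 values rested on a dim probe. Raw intensities were 111, 136, 133 and 155 for untreated, BMP4, CHIR99021 and both, so that the raw ratio of both treatments to untreated was 1.39. With no background correction the log2 difference was 0.54 and with a larger offset 0.83, which ended the call with the direction kept. Under BMP4 and CHIR99021 alone it was 0.33 and 0.26 with no background correction. The other 2 KLF10 probes were not detected on any array and had differences from untreated of 0.06 and -0.03 under BMP4, 0.23 and 0.17 under CHIR99021 and 0.35 and 0.34 under both. One of them is annotated to the same transcript as the detected probe and the other to a further KLF10 transcript. In the detected genes with mean levels from 5 to 6, the central 95% of differences between both treatments and untreated ran from -0.77 to 0.77.

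**Figure D2:**
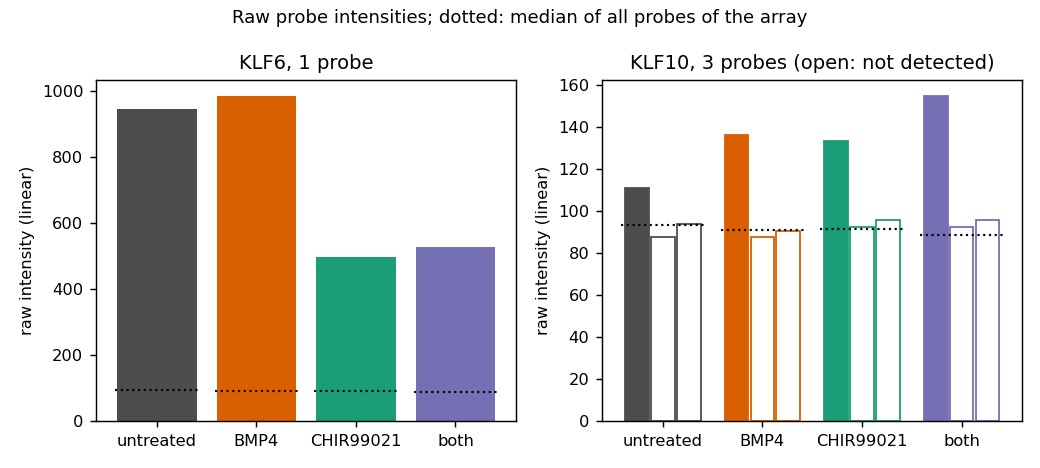
Raw intensity (linear scale from 0, y axis, a different range in each panel) of the KLF6 probe and the 3 KLF10 probes on the 4 arrays, open bars where the probe was not detected, with the median of all probes of each array as a dotted line. KLF6 stood at 945 and 986 without CHIR99021 and at 497 and 528 with it, while the KLF10 probe that was detected ran from 111 to 155 and its other probes stayed near the array median.

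KLF4 and KLF5, the pair linked to pluripotency, were at the edge of detection. KLF4, on chromosome 9 (107484852 to 107489769), measured 5.11 (untreated), 4.74 (BMP4), 4.96 (CHIR99021) and 4.68 (both), and only the untreated array detected it. Its level under BMP4 was at least 1.11-fold lower than in untreated cells, under CHIR99021 at least 1.06-fold and under both at least 1.10-fold, where "at least" counts the dimmer array at the lowest level that a detected probe had there. The measured differences were -0.37, -0.15 and -0.43, and -0.10, -0.04 and -0.12 without background correction. All of these KLF4 bounds and differences rest on the single untreated reading, whose error the bounds do not include. A second KLF4 probe was not detected on any array. KLF5, on chromosome 13 (73054976 to 73077538), measured 4.64 (untreated), 4.88 (BMP4), 4.53 (CHIR99021) and 4.97 (both), with detection p-values from 0.0117 to 0.132. Both BMP4 arrays were above both arrays without BMP4, but how many genes split this way was not counted. No array passed the detection limit, so nothing is read from this order and a fold is not given. Raw intensities of KLF5 lay between 91.4 and 98.4. A difference in KLF5 was not detectable at this signal.

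KLF2, an activator also known from endothelial cells, was detected on all 4 arrays. It measured 5.71 (untreated), 6.11 (BMP4), 5.56 (CHIR99021) and 5.38 (both). The BMP4 array was highest and the combined array lowest, so that BMP4 came with 0.40 in otherwise untreated cells and -0.18 in cells with CHIR99021. The widest KLF2 difference was 1.66-fold lower when CHIR99021 was added to BMP4 (-0.73), within the size rule, with 161 of 10732 genes at least as far down.

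The contrast between the pair linked to pluripotency and the pair linked to stress had no constant sign. The mean log2 difference of KLF4 and KLF5 minus that of KLF6 and KLF10 was -0.61 under BMP4, 0.05 under CHIR99021 and -0.31 under both treatments, all against untreated. It was -0.36 when BMP4 was added to CHIR99021 and 0.30 when CHIR99021 was added to BMP4. Under CHIR99021 the stress-linked mean of -0.18 was made of KLF6 at -1.07 and KLF10 at 0.72, and thus described neither gene. Size and sign depended on the processing. Without background correction the values against untreated were -0.28 under BMP4, 0.30 under CHIR99021 and 0.07 under both, an offset of 50 gave -0.40, 0.24 and -0.06, and median scaling gave -0.01 under CHIR99021. With KLF5 undetected on all arrays and KLF4 on all treated ones, the KLF4 and KLF5 side of each contrast came from signals at or below the detection limit.

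The genes for KLF repressors were not called in any comparison, KLF10 aside. KLF13, on chromosome 15, measured 8.20 (untreated), 7.88 (BMP4), 8.16 (CHIR99021) and 8.06 (both), a narrow span, with the BMP4 array lowest at 1.25-fold below untreated. KLF3 measured 5.02 (untreated), 4.51 (BMP4), 5.12 (CHIR99021) and 5.36 (both), and the BMP4 array alone did not detect it. Its level was at least 1.32-fold higher under both treatments than under BMP4. The measured difference of 0.85 was taken against the undetected BMP4 value. A second KLF3 probe was not detected, with a difference of -0.10 in the same comparison. KLF9, known as a gene that responds to thyroid and steroid hormones, measured 5.11 on the untreated array, where it was detected, and 4.54, 4.57 and 4.47 under BMP4, CHIR99021 and both, where it was not. The bounds were at least 1.11-fold, 1.06-fold and 1.09-fold below untreated. All 3 treated values lay below the detection limit, and all 3 bounds rest on the single untreated reading, whose error they do not include. Without background correction the differences were -0.16, -0.15 and -0.18. KLF7, a close relative of KLF6, measured from 4.40 to 4.66 and was not detected.

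**Figure D3:**
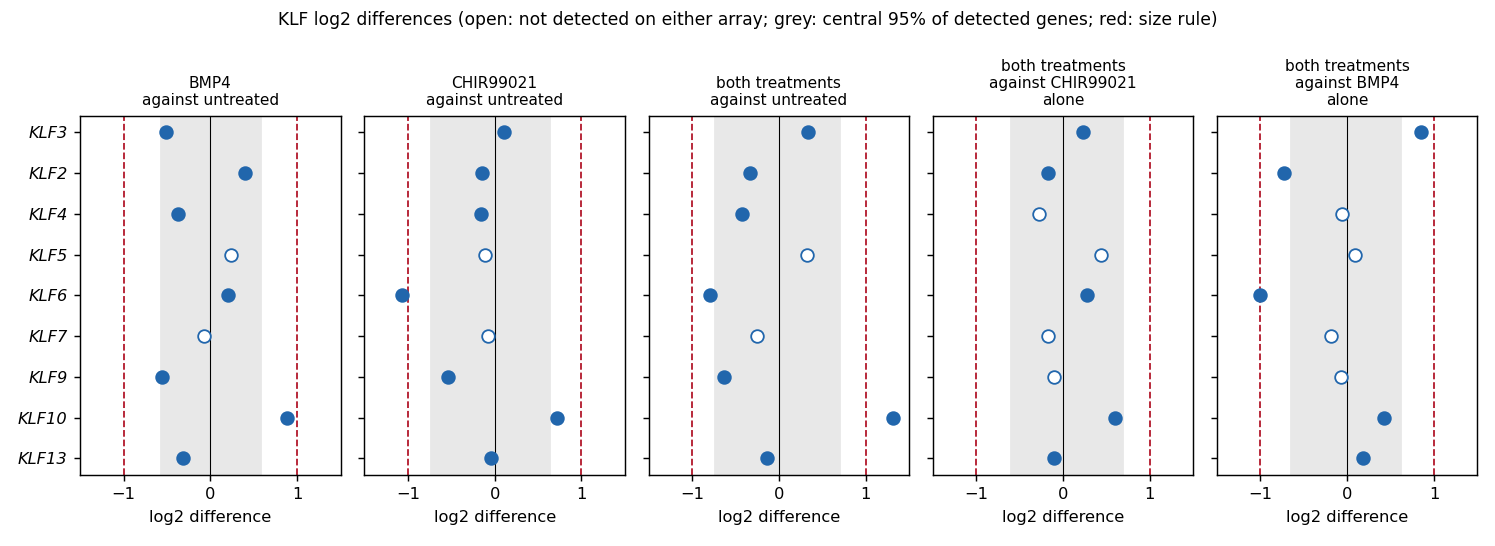
Log2 difference (x axis) of each KLF gene (y axis) in the 5 comparisons of a pair of arrays, open where neither array detected the probe, with the central 95% of all detected genes in grey and the size rule of 1 as dashed lines. KLF6 reached the lower line with CHIR99021 against untreated (-1.07) and with both against BMP4 (-1.0), and KLF10 passed the upper line with both against untreated (1.32).

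Over the measured KLF genes, medians stayed within the size rule in every comparison. The median log2 difference was -0.32 over 7 genes under BMP4, -0.15 under CHIR99021 and -0.33 under both, and 0.24 and 0.18 over the 5 genes measured when BMP4 or CHIR99021 was added to the other treatment. The corresponding medians over all detected genes lay between -0.01 and 0.00. KLF4 and KLF9 counted as measured only through the untreated array, and so did KLF3 under BMP4. This pulled the KLF medians against untreated down. The KLF genes detected on all arrays were at 0.40 (KLF2), 0.20 (KLF6), 0.89 (KLF10) and -0.32 (KLF13) under BMP4. No direction of the KLF genes as a group is read from these medians. No KLF gene passed the rule for departure from additivity, which 0.691% of 11282 genes did upwards and 0.629% downwards. The departure was -0.58 for KLF2, which all arrays detected, and 0.75 for KLF3, whose value contains the undetected BMP4 array.

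For the 5 KLF genes measured in all of them, each treatment effect could be read from separate pairs of arrays. CHIR99021 came with lower KLF6 by similar amounts with and without BMP4 (-1.0 and -1.07) and with higher KLF10 in both (0.43 and 0.72). BMP4 came with higher KLF10 in both (0.89 and 0.60) and slightly higher KLF6 (0.20 and 0.28). KLF3 and KLF2 had opposite signs of the BMP4 difference in the presence and absence of CHIR99021, with KLF3 undetected under BMP4 alone, and KLF13 opposite signs of the CHIR99021 difference. That is 2 of 5 and 1 of 5 genes, beside 42.2% and 40.2% of all genes. No KLF gene was called higher by a treatment in both of its pairs, as 0.128% of genes were with BMP4 and 0.177% with CHIR99021.

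**Figure D4:**
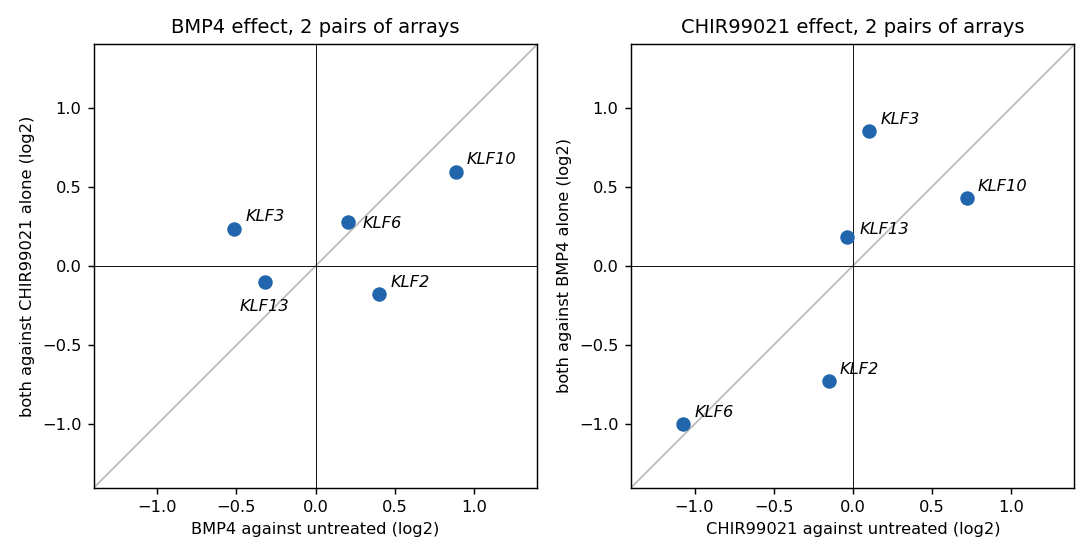
Effect of BMP4 (left) and of CHIR99021 (right) as log2 differences in the absence (x axis) and presence (y axis) of the other treatment, for the 5 KLF genes measured in both pairs, with the line of equal effects. KLF6 lay close to that line for CHIR99021 at -1.07 and -1.0, and KLF3 and KLF2 lay off it for BMP4, on opposite sides.

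Immediate-early and stress genes, the class to which KLF6 is assigned, gave lower calls with CHIR99021 and no higher ones. Of 24 listed genes besides KLF6 and KLF10, 22 had a probe. The list was chosen with earlier results of these data known, so its counts are descriptive and lend KLF6 no separate support. Under CHIR99021 3 of 17 measured genes were lower and none higher, beside 0.586% lower and 0.335% higher over all detected genes. Of the 17, 13 lay below 0, and the median was -0.55 beside -0.01 over all genes. The lower ones were CCN1 (-1.91) and CCN2 (-1.59), which encode matricellular proteins, and the AP-1 subunit gene JUN (-1.37). When CHIR99021 was added to BMP4, CCN1 (-1.58) and CCN2 (-1.30) were lower among 19 measured, with a median of -0.47 and JUN at -0.88. Over all genes 0.466% were lower and 0.345% higher there. SRF, the serum response factor gene, was at 0.04 and 0.12 in these comparisons, and ATF3, a stress-induced factor gene, at 0.01 and -0.25. Both treatments against untreated gave 2 lower genes of 18 (CCN1 at -1.69 and CCN2 at -1.42, median -0.18), beside 0.656% lower and 0.628% higher. None of 18 was called under BMP4 (median 0.05), nor when BMP4 came on top of CHIR99021 (median 0.18). Few genes were called at all in these comparisons, with 0.092% lower and 0.203% higher, and 0.0851% lower and 0.331% higher. KLF6 lay among the lower genes of this class with CHIR99021, and KLF10 lay above all of its members that were detected on every array.

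**Figure D5:**
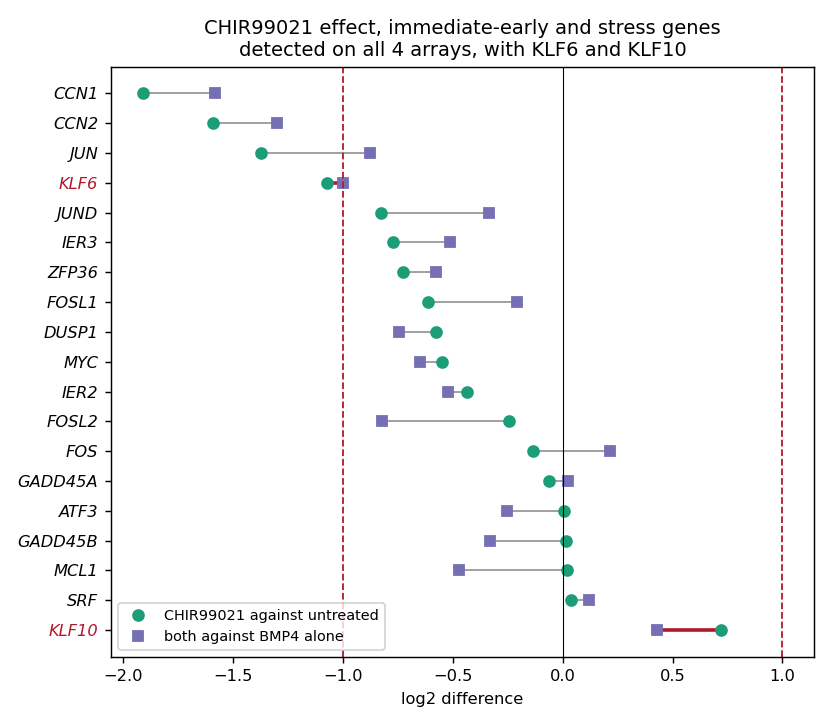
Log2 difference (x axis) with CHIR99021 against untreated (circles) and with both treatments against BMP4 (squares) for the 17 immediate-early and stress genes detected on all 4 arrays and for KLF6 and KLF10 (red), with the size rule of 1 dashed. CCN1, CCN2, JUN and KLF6 lay lowest under CHIR99021, and KLF10 lay highest in both comparisons at 0.72 and 0.43.

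Markers of other cell types were checked beside these values. Of 7 fibroblast markers, 4 were detected on at least 1 array. COL1A1, COL1A2 and THY1 were detected on all 4, COL3A1 on 2, and LUM, DCN and POSTN on none. Their summed level was 11.71 (untreated), 11.48 (BMP4), 11.40 (CHIR99021) and 11.23 (both) on the log2 scale. The median differences with CHIR99021 were -0.39 against untreated and -0.33 against BMP4, negative like those of KLF6, and none was called. Their part in the KLF6 result was not tested. Of 4 neural, 4 endoderm, 4 trophoblast and 4 endothelial or blood markers, 1 each was detected on any array (TUBB3, AFP, CGB3 and CDH5). CDH5, an endothelial cadherin gene, was detected on all 4 and had negative CHIR99021 differences like KLF6, at -0.80 against untreated and -0.22 when CHIR99021 was added to BMP4, without a call. PECAM1, PTPRC and HBG1 were not detected, and the part of CDH5-bearing cells in the KLF6 result was not tested.

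The partners and relatives of the KLF proteins gave few calls. Their lists were also chosen with earlier results of these data known. Over all detected genes, 0.0851% to 0.691% were called in a given direction per comparison, so lists this small would mostly hold none. Under CHIR99021 against untreated 0.335% of genes were higher and 0.586% lower. The shares were 0.628% and 0.656% with both treatments against untreated, and 0.345% and 0.466% against BMP4. None of the 11 corepressor genes, all detected on every array, was called in any comparison, and SIN3A, CTBP1 and CTBP2 had CHIR99021 differences of -0.34, -0.40 and 0.29. Of 18 genes of the naive pluripotency network, 11 to 15 were measured per comparison and none was called. ESRRB, an orphan receptor gene, was detected on the combined array only, TFCP2L1 on all 4, and SOX2 was at -0.91 under CHIR99021. The route from MEK5 through ERK5 to MEF2 factors, known to induce KLF2 and KLF4 in endothelial cells, had 4 of 7 genes with a probe detected and no call. Early TGF-beta response genes, the class in which KLF10 was described, gave NODAL as higher (2.16) and LEFTY1 as lower (-1.37) under CHIR99021 among 11 measured, the same pair with both treatments against untreated (2.16 and -2.12) and against BMP4 (2.45 and -1.16), and no call under BMP4 nor on adding BMP4 to CHIR99021. Of the 8 KLF genes outside the set, 7 had a probe. KLF12 was detected on all arrays and KLF8 under CHIR99021 only, and neither was called. KLF8 was at least 1.34-fold above untreated under CHIR99021, a bound that rests on that single reading. On the combined array KLF8 was not detected, at 0.08 against BMP4 and -0.05 against untreated. In the related SP family SP5 alone was called, among 6 or 7 measured genes. It was not detected on the arrays without CHIR99021 and was at least 29.1-fold higher under CHIR99021 and at least 22.8-fold higher under both treatments than in untreated cells, and at least 22.5-fold higher when CHIR99021 was added to BMP4.

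For the KLF genes that passed the size rule, the 3 genes with the nearest pattern were sought among 9302 others detected on all arrays, by Euclidean distance over the 3 log2 differences from untreated. These differences share the untreated array. Nearest to KLF6 were TSPY26P (distance 0.02), CYP26A1 (0.10), which encodes an enzyme that breaks down retinoic acid, and BCAR3 (0.21). CYP26A1 was at 0.29 under BMP4, -1.11 under CHIR99021 and -0.80 under both. Nearest to KLF10 were GFOD2 (0.22), the decoy death receptor gene TNFRSF10D (0.24) and DCUN1D3 (0.29). GFOD2 was at 0.71 under BMP4, 0.61 under CHIR99021 and 1.25 under both.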

How the data were processed

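The authors deposited, per the file headers, linear raw intensity values for 47321 probes on each of 4 arrays and a detection p-value per probe from GenomeStudio in a version not given in the sources used here. Normalized intensity values that the authors also deposited, made by background subtraction and cubic spline normalization, served as an alternative on the scale log2(value + 16). Raw intensities were corrected with the normexp model (nec of limma 3.58.1, R 4.3.3) through the detection p-values, with an offset of 16, followed by quantile normalization and log2. This offset shrinks differences of dim probes. Symbols came from a platform annotation, updated by Entrez ID through RefSeq (GRCh38.p14), with 30073 of 30120 listed probes matched. Each gene was read at its probe of highest mean level. Differences were taken between single arrays, without a test, and their precision is limited by the number of arrays. Genes named were the KLF members, list members past the size rule with up to 4 others a list, and the 3 nearest patterns of each called KLF gene. Markers of other cell types beyond that number were named after their values were seen. The members and lists were chosen with earlier results of these data known. Alternatives were no background correction, an offset of 50, median scaling, the authors' values, other detection limits, a 1.5-fold rule and the mean of detected probes. Promoter windows came from RefSeq, and the KLF10 window is not shown.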

Additional observations from a re-analysis of the deposited data

Results flagged for a closer look

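Of the KLF genes measured in both pairs of arrays, 3 had a treatment difference of opposite sign in the presence and absence of the other treatment, with 1 array behind each value. These differences between backgrounds were not tested. KLF3 was at -0.51 with BMP4 alone and at 0.24 when BMP4 was added to CHIR99021, a change of 0.75 on the log2 scale (0.748), and its level under BMP4 alone was not detected. KLF2 was at 0.40 with BMP4 alone and at -0.18 with BMP4 added to CHIR99021, a change of -0.58 (-0.578), with detection on all 4 arrays. Without background correction these changes were 0.22 for KLF3 and -0.23 for KLF2, and with an offset of 50 they were 0.35 and -0.36. KLF13 was at -0.04 with CHIR99021 alone and at 0.18 with CHIR99021 added to BMP4, a change of 0.22. Opposite signs of this kind were found for 42.2% of 10155 genes with BMP4 and 40.2% of 10197 genes with CHIR99021.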

How the results depend on the processing

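No KLF difference that was called changed direction under any alternative run. KLF6 against untreated under CHIR99021 kept its call under all alternatives except no background correction, which left 0 lower KLF genes. When CHIR99021 was added to BMP4, the count of lower KLF genes went from 1 to 0 with no background correction, with an offset of 50 and with median scaling, KLF6 being at -0.89, -0.95 and -0.98. The higher call of KLF10 under both treatments was lost, leaving 0, with no background correction and with an offset of 50. A 1.5-fold rule gave 1 higher KLF gene under BMP4, under CHIR99021 and when BMP4 was added to CHIR99021, KLF10 each time. When CHIR99021 was added to BMP4 and for the departure from additivity, the 1 higher gene was KLF3, undetected under BMP4. There were 2 lower KLF genes for both treatments against untreated (KLF6, and KLF9, detected untreated only) and 2 against BMP4 (KLF6 and KLF2). The share of all genes past 1.5-fold was not counted, so nothing on the KLF genes is read from these counts. Of the counts of KLF genes under the alternatives, 83 stayed within 1.5 times the main count and 13 did not. Most main counts were 0, and a 0 that stayed 0 tells nothing of how stable the calls were. For the main counts of 1, the shifts are those given above. With no background correction, 9 genes were higher and 10 lower under CHIR99021 over the whole array, against 36 and 63. Under both treatments against untreated these were 23 and 12, and 11 and 6 against BMP4, in place of 68 and 71 and of 37 and 50. With an offset of 50 the same 3 comparisons gave 16 and 18, 39 and 23, and 19 and 10. Median scaling gave 31 and 5 under BMP4, and the authors' values 41 and 31, against 22 and 10. The cause of these shifts was not tested. No paired analysis was possible because each group holds 1 array, so that no comparison has a second array of the same groups to pair. An additive fit over the 4 arrays, which would take the departure from additivity as error, was not run. Signal near the detection limit restricts KLF3, KLF4 and KLF9, for which only bounds can be given against undetected arrays, and KLF5 and KLF7, for which no fold can be given.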
